A study of Mus musculus with 10 samples.

Results

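Genes of the cytosolic ribosomal proteins were followed in mouse Leydig cells, the testosterone-producing cells that lie between the tubules of the testis. Members were chosen by symbol: Rpl or Rps followed by a digit, together with Rplp0, Rplp1, Rplp2 and Rpsa, without symbols that hold -ps or -rs and without the S6 kinases. Of 25239 symbols in the count table, 108 began in this way, 8 were dropped for -ps or -rs, 10 were kinases, and 90 remained, 54 of the large subunit (Rpl) and 36 of the small subunit (Rps). The rule uses names alone, so it also takes genes that are relatives of a ribosomal protein (Rpl7l1, Rpl22l1, Rps27l), a binding protein of one (Rps19bp1) and a gene derived from one (Rps23rg1). It misses genes such as Fau and Rack1, whose products sit in the ribosome under other names.

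Counts from RNA sequencing covered 4 groups with 10 libraries in all. The mouse Leydig tumour cell line MLTC-1 was treated with DMSO, the solvent, in 3 libraries and with hymeglusin, an inhibitor of cytosolic HMG-CoA synthase, in 3 libraries. Untreated primary Leydig cells were isolated from testes of 2-month-old and of 24-month-old mice, with 2 libraries per age. Not given in the sources used here were the dose and duration of hymeglusin, the mouse strain, the isolation method and any pooling of animals. MLTC-1 stands for 1 tumour line. Nothing states that replicates come from different cultures or animals. The p-values therefore rest on the spread among these libraries, which could be technical.

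Ribosomal protein mRNAs are among the most abundant and shortest mRNAs of a cell. In mammals they begin at a cytosine followed by a run of pyrimidines, the 5′ terminal oligopyrimidine (TOP) tract, through which mTOR and the RNA-binding protein LARP1 set their translation and stability together. Most proteins of a subunit are needed in equal numbers, and free copies of several ribosomal proteins, Rpl5 and Rpl11 among these, bind Mdm2 and so stabilise p53. Male germ cells use relatives of X-linked ribosomal protein genes, such as Rpl10l in place of Rpl10 and Rpl39l in place of Rpl39.

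Start sites were searched for pyrimidine words of the kind found in TOP tracts, which part of the members hold. The windows below hold the 15 bases before and the 15 from each RefSeq start site on GRCm38.p6, on the transcribed strand, with the letters CTTTC or CTTCC in capitals. They were chosen to show 5 members with a pyrimidine run at the start, 3 without either word, and the germ cell relatives Rpl10l and Rpl39l.
Rplp2, chr7:141447636-141447665, plus strand: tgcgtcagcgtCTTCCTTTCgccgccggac
Rps10, chr17:27635230-27635259, minus strand: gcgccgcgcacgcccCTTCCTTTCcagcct
Rpl15, chr14:18270972-18271001, minus strand: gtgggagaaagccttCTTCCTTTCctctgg
Rpl7a, chr2:26910792-26910821, plus strand: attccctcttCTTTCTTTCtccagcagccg
Rpl28, chr7:4792950-4792979, plus strand: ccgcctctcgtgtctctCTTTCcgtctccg
Rplp0, chr5:115559452-115559481, plus strand: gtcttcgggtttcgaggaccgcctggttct
Rps16, chr7:28350674-28350703, plus strand: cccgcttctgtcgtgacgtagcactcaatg
Rpl10, chrX:74270801-74270830, plus strand: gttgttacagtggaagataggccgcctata
Rpl10l, chr12:66284387-66284416, minus strand: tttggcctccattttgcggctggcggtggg
Rpl39l, chr16:10170213-10170242, plus strand: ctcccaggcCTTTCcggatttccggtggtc
RefSeq start sites were held for 69 of the 90 members. Within 25 bases on either side of the start, CTTTC stood on the transcribed strand in 21 of the 69 (30.4%) and in 7.87% of 27025 genes. On the other strand it stood in 10.1% of members and 7.07% of genes. Either CTTTC or CTTCC, which can overlap, stood on the transcribed strand in 50.7% of members and 18.9% of genes, and on the other strand in 30.4% and 19.6%. The ETS-type word CCGGAAG, searched on both strands of the 300 bases around the start, stood in 37.7% of members and 9.93% of genes. The YY1-type word AAGATGGC, searched in the same way, stood in 8.70% and 3.19%. A word in a window is a description of letters and marks no bound site.

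Total counts per library ranged from 17407456 to 34787330, so that 0 counts allow up to 0.0862 to 0.172 CPM (counts scaled to library size; this is 3 counts of the library and covers counting error only). The Leydig cell markers Cyp11a1, Cyp17a1, Hsd3b1, Star, Lhcgr and Nr5a1 were detected in every library, whereas Hsd17b3 was at or near 0 in MLTC-1. The 11 spermatid markers summed to 2312 and 3177 CPM in the 2-month libraries against 10961 and 6251 CPM in the 24-month ones, and 8 of the 11 rose with age (13.5% of all tested genes did), 2 of the 11 with an offset for transcript length (6.46% of all). In MLTC-1 they summed to 73.9 to 104 CPM, nearly all of it Odf2. The 10 macrophage markers summed to 21.8 and 23.6 CPM in the 2-month libraries against 143 and 149 CPM in the 24-month ones. Of 9 tested, 5 rose, and 4 with the offset. Cd14 gave most of the 24-month sums, at 88.5 and 103 CPM against 9.07 and 8.32 CPM at 2 months. Adgre1 stood at 0.58 and 0.951 CPM at 2 months and at 0.397 and 0.248 CPM at 24 months. Csf1r stood at 1.62 and 2.22 CPM, then at 2.05 and 2.07 CPM. Hba-a1, Hba-a2, Hbb-bs and Hbb-bt of red blood cells were at 0 in all libraries. The 2 libraries at 24 months stood apart from each other, with a chi-square per degree of freedom of 134 over genes against 18.9 at 2 months and 3.44 to 7.67 within the MLTC-1 groups.

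Ribosomal protein genes took a similar share of all counts in 8 libraries and a larger one in both libraries at 24 months. The share was 2.29%, 2.14% and 2.18% with DMSO and 2.23%, 2.12% and 2.21% with hymeglusin. Young primary cells gave 2.47% and 2.30%, and old ones 5.79% and 3.77%. The 24-month libraries lay above all others and differed from each other by more than the other 8 did among themselves. The summed level of the large subunit genes was 1.47 to 1.54 times that of the small subunit genes in every library, the 24-month ones included. Rows for -ps pseudogenes, which the rule leaves out, added 0.174% to 0.282% of the members' counts. In these bulk samples, fewer cells of a type and less RNA per cell cannot be told apart.

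**Figure D1:**
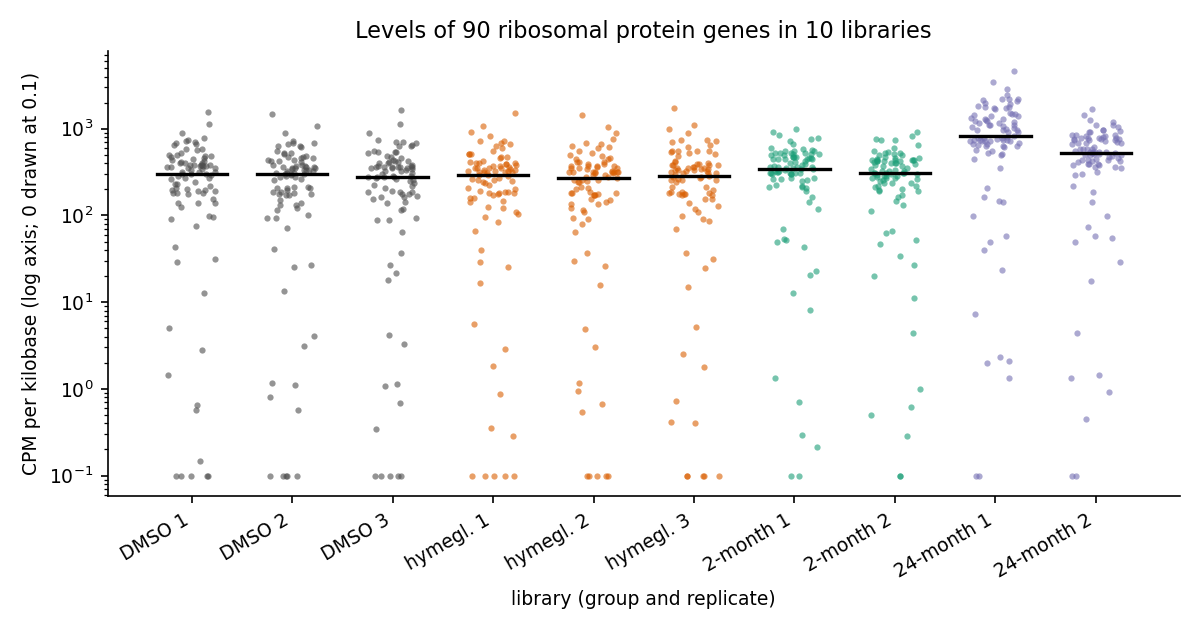
CPM per kilobase of transcript (log axis, scaled over all 10 libraries) for the 90 ribosomal protein genes, 1 point per gene and 1 column per library, with the median as a black line. The medians lie between 274 and 346 in 8 libraries and at 817 and 529 in the 24-month libraries, and a tail of low genes is seen in each.

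Levels of different genes are compared per kilobase of transcript, in CPM scaled over all 10 libraries. At 2 months the highest were Rpl41 at 986 and 905 CPM per kilobase, Rplp1 at 925 and 814, Rps14 at 852 and 767, Rpl10 at 778 and 735, and Rplp0 at 722 and 743. Rpl41 encodes the smallest protein of the large subunit, Rplp0 and Rplp1 belong to its acidic stalk, and Rps14 lies in the platform of the small subunit. The ranges of Rpl41 and Rplp1 overlapped, as did those of Rplp1 and Rps14, of Rps14 and Rpl10, and of Rpl10 and Rplp0. In DMSO-treated MLTC-1 cells the order was another, with Rpl41 at 1496 to 1662, Rps2 at 1075 to 1130, Rpl28 at 892 to 900.2 and Rps16 at 679 to 778 CPM per kilobase.

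The median member stood at 329 CPM per kilobase at 2 months, 297 with DMSO, 279 with hymeglusin and 691 at 24 months. A few members were far below. Rpl26 and Rps27rt had 0 counts in all 10 libraries, Rpl30 had 4 to 30 counts, Rpl34 had 34 to 96 and Rps27 had 37 to 148, whereas Rpl32 of similar size had 6071 to 13466. Rpl26, Rpl30, Rpl34 and Rps27 encode core proteins of the ribosome. Of the 75-base windows of their transcripts, 57.5%, 40.1%, 39.9% and 98.5% also occur in transcripts of other genes, and the handling of reads that match several genes was not given in the sources used here. Of the windows of Rpl10, which was among the highest, 91.9% are shared. Levels of members with shared windows are therefore uncertain, and the part that shared reads play was not tested. Rpl3l, a form known from striated muscle, had 5 to 28 counts.

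The first comparison asked how hymeglusin changed these genes in MLTC-1 cells. Many ribosomal protein mRNAs were slightly lower, and 1 was higher. Of 85 members tested, 44 fell and 1 rose (edgeR quasi-likelihood test, Benjamini-Hochberg adjusted over all tested genes, threshold 0.05), where 24.5% of all 12873 tested genes fell and 23.8% rose. The median log2 fold change was -0.14 in members and 0.01 in all genes. With an offset for transcript length the members' median was -0.082, with 3 higher and 28 lower (24% and 25.2% of all genes). With an offset for length and GC content it was -0.065, with 2 higher and 33 lower (25.5% and 26.7%). The decline spanned both subunits, with 26 of 51 large subunit genes and 18 of 34 small subunit genes lower. In 41 members every hymeglusin library lay below every DMSO library (27.3% of all genes), and in 2 every one lay above (27.7%).

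Rpl10, an X-linked gene whose protein joins the large subunit last, fell most. It stood at 391, 374 and 365 CPM with DMSO and at 291, 282 and 274 CPM with hymeglusin, a log2 change of -0.42 (SE 0.0466, edgeR adjusted p = 2.5e-09). The groups were well apart. Rpl14, a large subunit protein, stood at 243, 213 and 220.3 CPM and then at 175, 174 and 174 CPM (log2 -0.37, edgeR adjusted p = 1.5e-07). Rpl22, whose protein also binds viral and cellular RNAs outside the ribosome, stood at 227, 209.9 and 210.2 CPM and then at 167 CPM in each library (log2 -0.37, edgeR adjusted p = 7.7e-08). In both genes the 3 treated libraries were nearly equal and all lay below the controls.

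Rps25, a small subunit protein needed for initiation at some viral internal entry sites, fell by 0.35 on the log2 scale and Rpl23a, near the exit of the peptide tunnel, by 0.30. Of the p53 regulators, Rpl11 fell from 551 ± 30.6 to 447 ± 10.2 CPM (SD, n = 3 each) and Rpl5 from 362 ± 15.3 to 312 ± 8.84 CPM, with edgeR adjusted p = 1.8e-06 and 0.00026. Mdm2, their partner, stood at 95.7 and 91.5 CPM (log2 -0.06, edgeR adjusted p = 0.36). With the offset for length and GC content Rps25 stood at -0.23, Rpl23a at -0.20 and Rpl5 at -0.13, all still past the threshold. Rpl3, which reaches towards the peptidyl transferase centre, fell from 409 ± 5.59 to 335 ± 3.53 CPM (log2 -0.29, edgeR adjusted p = 2.1e-06).

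Rplp0, the stalk base on which translation factors dock, went the other way. It stood at 909.5, 885 and 916 CPM with DMSO and at 1113, 1026 and 1168 CPM with hymeglusin, a log2 change of 0.29 (SE 0.0471, edgeR adjusted p = 4.2e-06). No treated library reached down to the controls, and the change stayed between 0.24 and 0.39 in all 16 alternatives, though the fit of all 10 libraries gave an edgeR adjusted p of 0.21. Of its stalk partners, Rplp2 fell from 235 to 199 CPM (log2 -0.23, edgeR adjusted p = 0.00026), and Rplp1 stood at 283 and 289.9 CPM (log2 0.04, edgeR adjusted p = 0.57). With the length offset Rplp2 stood at -0.15 and remained lower, and Rplp1 stood at 0.11 and passed the threshold as higher (edgeR adjusted p = 0.026), as it did with scaling to total counts. Rplp0 is widely used as a reference gene for normalising quantitative PCR.

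Of the other members, Rps12 stood at 117, 121 and 124 CPM and then at 135, 125 and 131 CPM (log2 0.12, edgeR adjusted p = 0.056). With the length offset it passed the threshold as higher, at 0.19 (edgeR adjusted p = 0.00094), and likewise with length and GC content (edgeR adjusted p = 6.7e-05). Rpsa, also known as a laminin receptor, stood at 800.3 and 812 CPM and Rpl41 at 828 and 788 CPM, both with overlapping groups. Rps27a, which is made as a fusion with ubiquitin, varied between the DMSO libraries, at 178, 119 and 159 CPM, against 122, 118 and 105 CPM with hymeglusin (log2 -0.40, SE 0.172, edgeR adjusted p = 0.13). Without the second DMSO library, and with DESeq2, it passed the threshold.

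**Figure D2:**
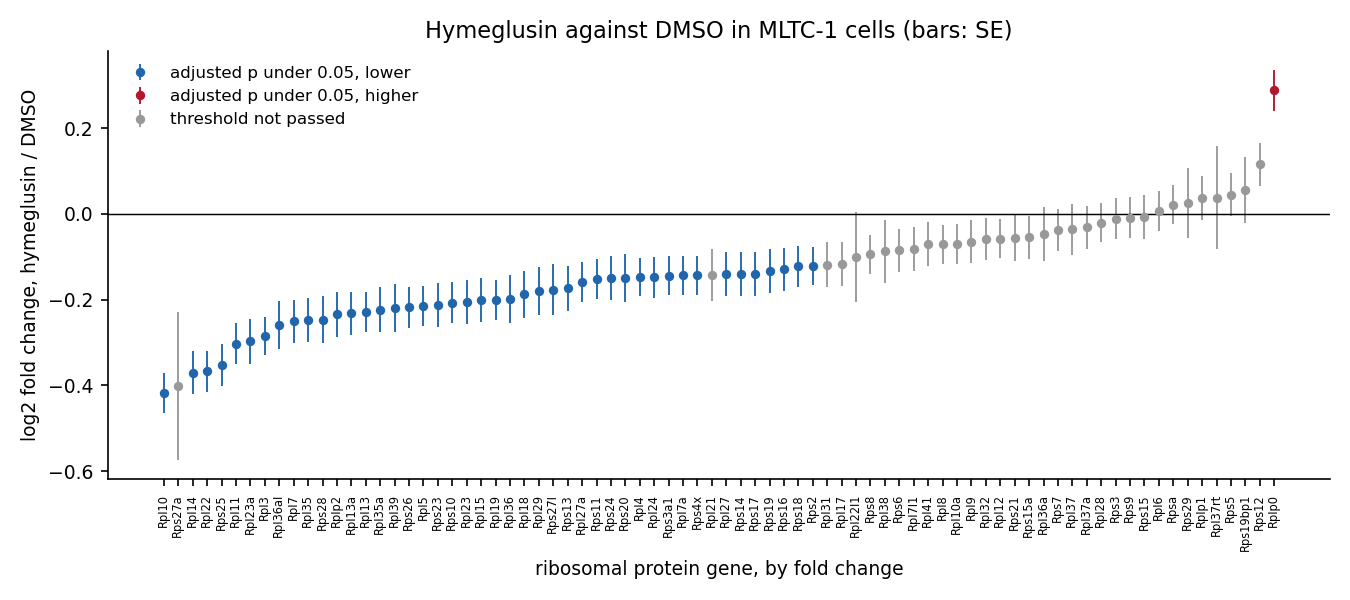
Log2 fold change of hymeglusin over DMSO with its standard error for 78 of the 85 tested members, drawn from those with a DMSO mean above 5 CPM, in order. Rplp0 alone passes the threshold above 0 (0.29), and the genes lower past it run up from -0.42 in Rpl10.

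Counts of called members depended on the scaling. With scaling to total counts the median of all genes moved to 0.11, and all genes then split into 4659 higher and 1996 lower against 3069 and 3149 with TMM. Members then split into 6 higher and 16 lower. One fit of all 10 libraries, which also changes the genes tested and the estimate of the spread, called 645 of all genes higher and 289 lower, and 0 members (edgeR; 1 higher and 1 lower at an unadjusted p under 0.05). The members' median minus that of all genes was -0.15 with TMM, with total counts and in the fit of all libraries.

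Related gene sets were listed beside the members. Over all tested genes 23.8% rose and 24.5% fell with hymeglusin. Genes of ribosome assembly (45 tested) had 9 higher and 10 lower, with Nop10 at -0.55 and Nob1 at -0.55 among the lower and Nat10 at 0.29 among the higher. Of 15 genes of RNA polymerase I, which transcribes ribosomal RNA, 3 rose. The list of translation factors with TOP mRNAs (18 tested) had 2 higher, Vim and Pabpc1, and 7 lower, led by Tpt1 at -0.37. Vim, which encodes vimentin, is no translation factor. Of 21 genes of mTOR control, 4 rose and 9 fell. The mTOR inhibitor Ddit4, at -0.81, and Larp1, at -0.27, were among the lower. Sesn2, likewise an mTOR inhibitor, at 0.36 and the S6 kinase gene Rps6kb2 at 0.46 were among the higher. Mtor stood at 0.09 (edgeR adjusted p = 0.14). Of the mitochondrial ribosomal proteins 3 rose and 26 of 78 fell. Of 36 symbols that match proteasome subunits, 3 rose and 21 fell. One of these, Psmc3ip, is a recombination factor and no subunit. A majority of lower calls was thus also present in the proteasome set, and no test set these lists against each other.

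Abundant genes of like length were often lower too. Against all tested genes within 10% of its length, a member's log2 change lay below their median in 66 of 84 cases, with a median gap of -0.10. Among genes of like length whose mean level also reached the members' lower quartile, a comparison chosen after seeing the data, 52.6% of 852 genes fell and 12.4% rose. The members then lay above the median in 47 of 78 cases, with a median gap of 0.04. The level limit was set on these other genes only and not on the members. Of all 85 tested members 51.8% fell, so this share and that of the other genes are of unlike sets.

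The second comparison asked how the genes differed between primary Leydig cells of 24 and 2 months. Ribosomal protein mRNAs were higher at 24 months across both subunits, with a median log2 change of 1.27, but so were short mRNAs in general, and with an offset for transcript length the median was -0.03. Of 88 members tested, 60 rose and 0 fell (edgeR, threshold 0.05), where 13.5% of all 16381 tested genes rose and 15.1% fell. At an unadjusted p under 0.05, 77 members were higher and 0 lower, a count that was not made over all genes. DESeq2 called 71 members higher and 0 lower, and 2787 and 2938 of all genes. With limma-voom 64 members were higher and 0 lower, and 2260 and 2867 of all genes. In 86 members both 24-month libraries lay above both 2-month libraries, which held for 35.9% of all genes. Of the large subunit genes 36 of 53 rose and of the small subunit genes 24 of 35.

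Rpl41 and Rps19 were among the called members with large changes. Rpl41 stood at 496 and 428 CPM in young cells and at 2414 and 871 CPM in old ones (log2 1.83, SE 0.477, edgeR adjusted p = 0.024). Rps19, mutated in Diamond-Blackfan anaemia, stood at 208 and 176 CPM and then at 908 and 383 CPM (log2 1.75, edgeR adjusted p = 0.021). In both genes the 24-month libraries lay above the 2-month ones, and the first was far above the second.

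Rpl19 at 1.74, Rps15 at 1.70 and Rpl29 at 1.68 followed. Among abundant members the smaller differences were in the large subunit gene Rpl4, at 643 and 575 CPM against 810 and 798 CPM (log2 0.40, edgeR adjusted p = 0.36), and the small subunit gene Rps3a1, at 536 and 449 CPM against 770.3 and 677 CPM (log2 0.55, edgeR adjusted p = 0.22), both named after their values were seen. Next came Rplp0, at 968 and 937 CPM against 1959 and 1236 CPM (log2 0.75, edgeR adjusted p = 0.14), Rpl3 (log2 0.75, edgeR adjusted p = 0.12) and the X-linked Rps4x, at 427 and 366 CPM against 669.7 and 675 CPM (log2 0.76, edgeR adjusted p = 0.099). None of these 5 passed the threshold. Rpl7l1, a relative of Rpl7, stood at 90.1 and 76.2 CPM against 77.4 and 64.7 CPM, and with Rpl34, with means of 2.98 and 2.93 CPM, made up the 2 tested members whose groups overlapped.

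Transcript length went with the fold change across all genes. In the shortest decile of tested genes, up to 915 bases, 48.8% of 1560 genes that are no members rose and their median log2 change was 1.36. In the longest decile, from 5820 bases, 56.4% fell and the median was -1.45. Of the members 62 lay in the shortest decile, and their median was 1.31. Within the members, the log2 change and log2 length had a Spearman's rho of -0.24 across 88 genes, which share libraries and are not independent.

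**Figure D3:**
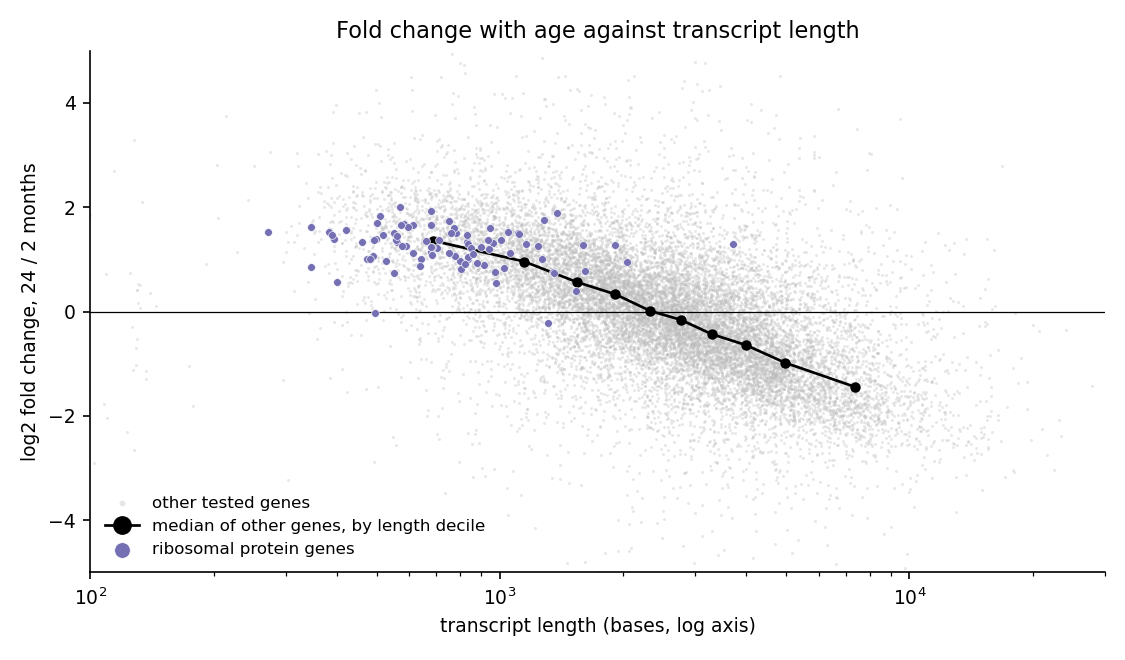
Log2 fold change of 24 over 2 months against transcript length (log axis) for all tested genes in grey, with the median of non-member genes in each length decile in black and the ribosomal protein genes in purple. Most members lie on the falling line that runs from 1.36 in the shortest decile to -1.45 in the longest.

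In both 24-month libraries short genes were higher and long genes lower. Set against the mean of the 2-month libraries, the median member was at 1.57 on the log2 scale in the first 24-month library and at 0.77 in the second. The shortest decile of other genes was at 1.43 and 0.85, and the longest decile at -1.70 and -1.11. The members thus lay above the other short genes in the first library and below them in the second.

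Against tested genes within 10% of its length, a member's log2 change was above their median in 38 of 87 cases and below it in 49. The median gap was -0.07, and 71 of the 87 lay between the quartiles of their like genes, 9 above and 7 below. Of the 8501 genes of like length 21.8% rose and 5.52% fell. With the longest transcript of each gene as the length, the median gap was 0.12. With genes of like length and at least the members' lower quartile in level, a comparison chosen after seeing the data, it was -0.06.

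A few members departed from genes of their length. Rps19 lay 0.96 and Rps3, a small subunit protein that also repairs DNA, 0.93 above the median of theirs, and with an offset for length they stood at 0.91 and 0.93 (edgeR adjusted p = 0.084 and 0.067). Rps20 rose from 192 and 180.1 CPM to 549.8 and 369.9 CPM and was the 1 member higher with that offset, at 1.81 (edgeR adjusted p = 0.0031), where 6.46% of all genes were higher. Its only coding GENCODE transcript has 3706 bases, the longest of any member, and its length sets this value. Rpl7l1 was the 1 member lower, at -0.99 (edgeR adjusted p = 0.045), where 6.62% of all genes were lower. With an offset for length and GC content, Rps19, Rps3 and Rps20 were higher and Rpl7l1 and Rpl34 lower (9.44% and 11% of all genes).

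**Figure D4:**
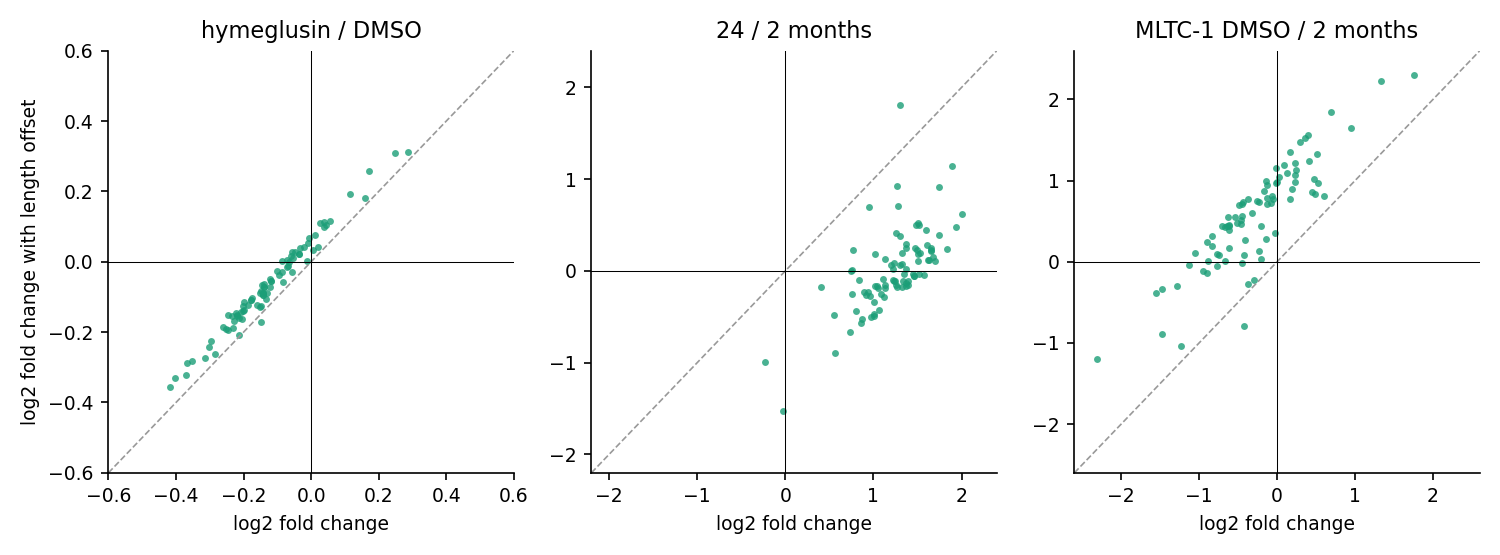
Log2 fold change of the tested members (x axis) against the same with an offset for transcript length (y axis) in the 3 comparisons, with the diagonal dashed. In MLTC-1 against 2-month cells, Rpl10l, Rpl39l and Rps4l, at -12.6, -12.8 and -13.3, lie outside the axes and are not seen. With age the points drop from around 1.27 to around 0, in MLTC-1 against 2-month cells they rise from around -0.32 to around 0.56, and with hymeglusin they lie near the diagonal, with the median going from -0.14 to -0.082.

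The size of the change depended on single libraries. Without the first 2-month library the members' median log2 change was 1.38, and without the second it was 1.14. It was 0.73 without the first 24-month library and 1.56 without the second. The median of all genes lay between -0.13 and 0.021 in these fits. In each of them 1 group has a single library, which is assumed to vary like the other group. Calls moved widely in these fits, for all genes as for the members, and are not counted here. Total-count scaling, under which the median of all genes moved to -0.21, called 3 members higher, and 531 of all genes. The members' median was 1.03, with 70 higher at an unadjusted p under 0.05, a count not made over all genes. The members' median minus that of all genes was 1.24 with this scaling and 1.28 with TMM.

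Among related sets in the age comparison, Fau, a ribosomal protein outside the symbol rule, rose by 1.83 and stood at 0.23 with the length offset. Over all tested genes 13.5% rose and 15.1% fell, and 6.46% and 6.62% with the offset. Of 78 mitochondrial ribosomal proteins 31 rose, and 17 with the length offset. Of the proteasome symbols 8 of 36 rose, and 1 with the offset. The assembly factors, whose mRNAs are long (median 2597 bases), had 3 higher and 7 lower, with Heatr1 at -2.01 and Utp20 at -1.80, and 2 higher with the offset. Of 23 genes of mTOR control 2 rose and 7 fell, and 3 and 3 with the offset. Myc, an activator of ribosome synthesis, rose from 27.4 to 95.2 CPM (log2 1.79, edgeR adjusted p = 0.012) and still with the offset (1.11, edgeR adjusted p = 0.047). Mtor stood at -1.56 (edgeR adjusted p = 0.013) and at -0.25 with the offset (edgeR adjusted p = 0.62).

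The relatives used by germ cells were present in primary cells and not detected with DMSO in MLTC-1. Rpl10l (chr12:66283379-66284401) had 572 and 876 counts at 2 months and 624 and 1375 at 24 months. Rpl39l (chr16:10170197-10174911) had 648 and 919, then 1372 and 1887. Rps4l (chr6:148354656-148355596), related to Rps4x, had 1210 and 1107, then 2051 and 1658.

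In MLTC-1 the 3 genes had 0 counts in all DMSO libraries, and with hymeglusin Rps4l had 2 counts in 1 library and the others 0. Against 3 counts over the 3 DMSO libraries, the level at 2 months was at least 1366-fold higher for Rps4l, 924-fold for Rpl39l and 854-fold for Rpl10l. Their windows are 6.67%, 0% and 0.316% shared with other genes.

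With age, Rpl39l rose from 26.5 and 33.8 CPM to 93 and 78.3 CPM (log2 1.50, edgeR adjusted p = 0.014), and Rps4l from 49.5 and 40.7 to 139 and 68.8 CPM (log2 1.20, edgeR adjusted p = 0.048). Rpl10l stood at 23.4 and 32.2 CPM and then at 42.3 and 57 CPM (log2 0.84, edgeR adjusted p = 0.091). With the length offset all 3 lay between -0.10 and 0.11. The spermatid markers, given above, were higher in the same libraries, and their part in these values was not tested. Spermatogonia and spermatocyte markers summed to 593 and 932 CPM in young cells, 1233 and 1086 CPM in old ones and 4.28 to 5.24 CPM in MLTC-1. Ldhc gave most of the sums in primary cells, at 413 and 643 CPM, then 1123 and 879 CPM. Of the 9 markers, 0 rose and 0 fell with age (13.5% and 15.1% of all tested genes).

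**Figure D5:**
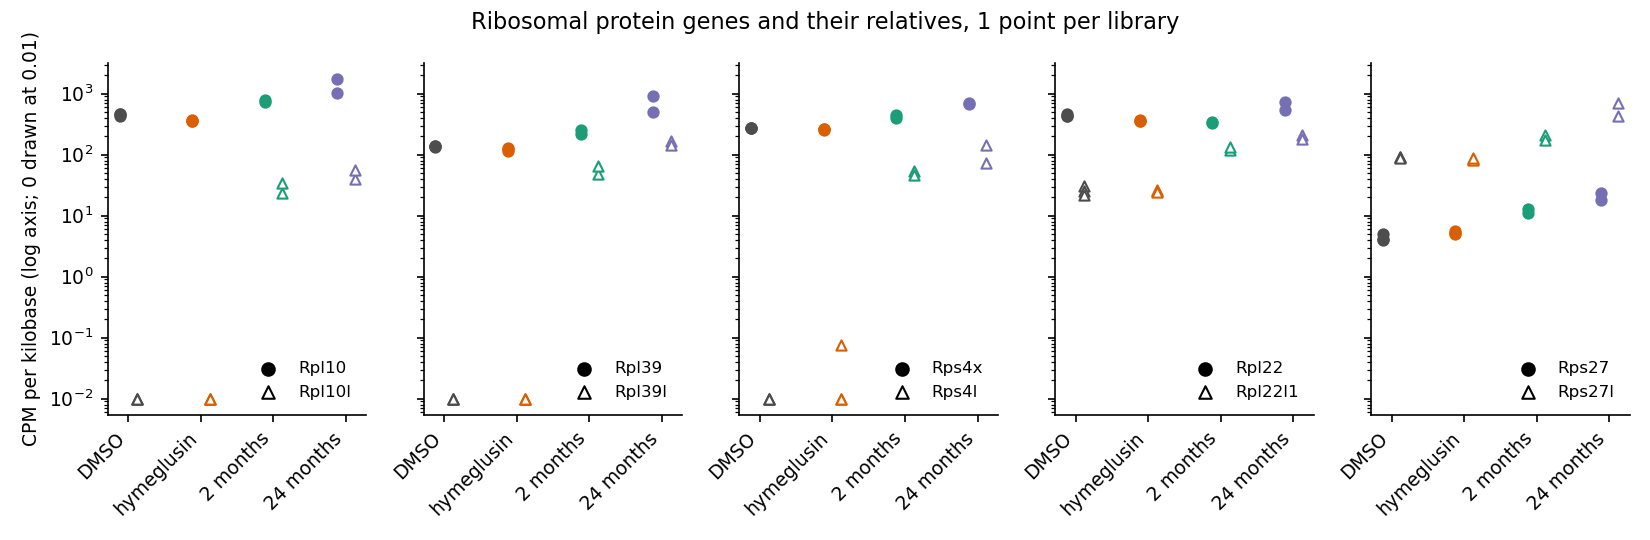
CPM per kilobase (log axis, 0 drawn at 0.01) of 5 ribosomal protein genes (filled circles) and their relatives (open triangles), 1 point per library in the 4 groups. Rpl10l, Rpl39l and Rps4l are at 0 in the DMSO libraries and above 20 in the primary cells, and Rps27l lies above Rps27 in every library. The level of Rps27 is uncertain, with 37 to 148 counts and 98.5% of its 75-base windows shared with other genes.

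Rps27l and Rpl22l1 were expressed in all groups. Rps27l, a p53-responsive relative of Rps27, rose with age from 121 and 92 CPM to 419 and 250.2 CPM (log2 1.65, edgeR adjusted p = 0.016) and stood at 0.21 with the length offset. It fell with hymeglusin from 54 ± 1.14 to 47.7 ± 1.45 CPM (SD, n = 3 each, log2 -0.18, edgeR adjusted p = 0.014), a call that was lost with the length offset (-0.11, edgeR adjusted p = 0.12), with length and GC content (-0.027, edgeR adjusted p = 0.71), with total counts, in the fit of all libraries and without the second DMSO library. Rpl22l1, the relative of Rpl22, stood at 64.2 and 68.1 CPM in young cells against 118 and 102 CPM in old ones (log2 0.73, edgeR adjusted p = 0.11).

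The third comparison set the tumour line against young primary cells, using the same DMSO and 2-month libraries as the 2 above. Of 87 members tested, 18 were higher and 51 lower in MLTC-1 (edgeR), where 34.4% of 16092 genes were higher and 48.5% lower. The median log2 change of members was -0.32 and of all genes -0.27, so the members lay near the background. With the length offset the direction turned, with 60 higher and 10 lower and a median of 0.56, where 33.7% and 49.7% of all genes were higher and lower. Against genes within 10% of its length, a member lay above their median in 77 of 86 cases, with a median gap of 1.01. Against genes of like length that also reached the members' lower quartile in level, a comparison chosen after seeing the data, 48 of 79 lay below, with a median gap of -0.29.

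Some members kept their direction under both. Rps16 stood at 868, 744 and 817 CPM in MLTC-1 and at 249 and 231 CPM at 2 months (log2 1.75, SE 0.0792, edgeR adjusted p = 8.3e-08). Rpl28 stood at 698, 681 and 699 CPM against 303 and 247 CPM (log2 1.33, edgeR adjusted p = 7.3e-07), and Rps2, at the entry of the mRNA channel, at 1093, 1022 and 1086 against 560.4 and 542 CPM (log2 0.95, edgeR adjusted p = 5.0e-07). All 3 were higher in every MLTC-1 library, and with either offset they stood between 1.30 and 2.47.

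Rpl22l1 stood at 17.3, 13.8 and 12.1 CPM in MLTC-1 and at 66.2 and 76.4 CPM at 2 months (log2 -2.31, edgeR adjusted p = 7.6e-07). Rpl22 itself was higher in MLTC-1, at 208 against 162 CPM (log2 0.36, edgeR adjusted p = 0.00045). Rpl23 stood at 134, 122 and 124 against 375 and 332 CPM (log2 -1.48), and Rps24 at 225, 196 and 194 against 508 and 454 CPM (log2 -1.23). Rpl22l1, Rpl23 and Rps24 remained lower with both offsets, with log2 changes between -1.20 and -0.57. The assembly factors were higher in MLTC-1 in 35 of 45 cases and lower in 2 (34.4% and 48.5% of all genes). Fbl, the methyltransferase of ribosomal RNA, led them at 2.16, with Nhp2 at 2.05. With the length offset 34 were higher and 5 lower (33.7% and 49.7% of all genes). Of the 36 proteasome symbols 24 were higher and 6 lower, and of the 78 mitochondrial ribosomal proteins 36 and 26. Line, culture and animal cannot be told apart in this comparison.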

How the data were processed

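Raw counts for each gene symbol were deposited, without normalization by the authors. Submitters' processing notes name fastp 0.23.4, FastQC 0.12.1, HISAT2 2.2.1, featureCounts 2.0.6 and mm10. Not given in the sources used here were the strand setting, the annotation and the treatment of reads matching several genes, so near-identical copies and overlapping genes are uncertain. RNA came from an RNeasy kit and NEBNext Ultra libraries, per the labels' protocols.

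Members, lists and named genes were chosen with earlier results of these data known. Named genes are the 6 called members of largest change per direction and comparison, relatives, members of known role, the highest and lowest levels, and leading called genes of each list; some genes that the rule takes are not reported here. Each comparison was fitted alone with edgeR 4.0.16 (R 4.3.3): filterByExpr (minimum count 10, total 15), TMM, robust quasi-likelihood test, two-sided, Benjamini-Hochberg over all tested genes. SE is the log2 change over the square root of F. CPM of 1 comparison are scaled within its libraries, levels per kilobase and marker sums over all 10. Lengths are of the GENCODE M21 transcript with the longest coding sequence (97.9% of genes). Offsets are loess fits per library (span 0.3, 2 passes). Alternatives were RLE, total counts, TMM without members, DESeq2 1.42.0, limma-voom (limma 3.58.1), no count filter, offsets, 1 fit of all libraries, the replicate block and leaving out each library. Promoters are from RefSeq on GRCm38.p6. Fits were tested on simulated data.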

Additional observations from a re-analysis of the deposited data

How the results depend on the processing

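The settings RLE scaling, TMM without members, DESeq2, limma-voom and no count filter gave these ranges of called members. For hymeglusin 1 was higher and 44 to 46 lower (2861 to 3113 and 3070 to 3172 of all genes). For age 62 to 71 were higher and 0 lower (2255 to 2787 and 2452 to 3286). For MLTC-1 against 2-month cells 16 to 19 were higher and 49 to 57 lower (5278 to 5653 and 7782 to 8679). With hymeglusin, 1 higher and 44 lower became 6 and 16 with total counts, 3 and 28 with the length offset, 2 and 33 with the length and GC offset, and 0 and 0 in 1 fit of all 10 libraries (edgeR; 1 and 1 at an unadjusted p under 0.05). Leaving out each library gave 1 to 2 higher and 35 to 44 lower (2644 to 2913 and 2753 to 3074 of all genes). With age, 60 higher and 0 lower became 3 and 0 with total counts, 1 and 1 with the length offset, and 3 and 2 with the length and GC offset. Leaving out each library gave 0 to 82 higher and 0 lower. For MLTC-1 against 2-month cells, 18 higher and 51 lower became 60 and 10 with the length offset. The counts became 67 and 8 with the length and GC offset (5480 and 7983 of all genes). In 1 fit of all 10 libraries they were 8 and 36 (4610 and 7508 of all genes). Leaving out each DMSO library gave 16 higher and 47 to 50 lower (5095 to 5243 and 7492 to 7596 of all genes). Without a 2-month library, which leaves 1 in that group, the members' median log2 change was -0.26 or -0.35. With the replicate number as a block, hymeglusin gave 2 members higher and 47 lower (3127 and 3233 of all genes). Age gave 62 higher and 0 lower (2088 and 2686 of all genes). With the length offset and the block, age gave 3 higher and 0 lower (1120 and 1469 of all genes). Same-numbered libraries did not deviate together (r = 0.0024, -0.024 and 0.032 with hymeglusin, -0.091 with age), so the numbers were not taken as pairs.

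Total counts split all genes in the age comparison into 531 higher and 1301 lower against 2214 and 2471. With the length offset the direction turned with age for the median (-0.031), Rpl22 (-0.47), Rplp1 (-0.15) and Rplp2 (-0.049), and with the replicate block added for the median (-0.028), Rpl22 (-0.48), Rplp1 (-0.15) and Rplp2 (-0.085). With the length and GC offset it turned with age for the median (-0.064), Rpl22 (-0.40), Rpl29 (-0.043), Rplp1 (-0.30), Rplp2 (-0.20), Rps15 (-0.065) and Rps4l (-0.095). For MLTC-1 against 2-month cells it turned with the length offset for the median (0.56), Rpl10 (0.094), Rpl36al (0.77), Rpl39 (0.20), Rplp0 (0.13), Rplp1 (0.44), Rps14 (0.44), Rps27a (0.39), Rps4x (0.011) and Rps6 (0.17), and with the length and GC offset for the median (0.54), Rpl10 (0.24), Rpl36al (0.92), Rpl39 (0.45), Rpl5 (0.11), Rplp0 (0.17), Rps14 (0.27), Rps27a (0.65), Rps27l (0.27), Rps3 (0.0045), Rps4x (0.29) and Rps6 (0.35). The causes were not tested. With the longest transcript of each gene, the gap to genes of like length was 0.12 in place of -0.07, and the median level at 2 months 226 in place of 329 CPM per kilobase.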
